A study of Rattus norvegicus with 9 samples.

Results

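Coagulation factors and natural anticoagulants were followed as a group of 10 genes in the RNA of rat whole blood. The genes were picked by name from the table of 12854 genes: the procoagulant factors F5, F10, Fga, Fgb and Fgg, and the anticoagulants and inhibitors Procr, Thbd, Tfpi, Pros1 and Serpine2. All 10 were found. Every gene of this table had a count in some library, so shares of all genes given below are shares of genes with a count. The questions put to the 10 were how widely each is detected in blood, and whether contact with a hemostatic material moved their RNA. The study took blood of Sprague-Dawley rats and sequenced 9 libraries. Of these, 3 were of blood incubated for 15 min with DNAgel, a hydrogel of salmon sperm DNA crosslinked with PEGDA, 3 of blood incubated for 15 min with the gelatin sponge GS, a clinical hemostatic, and 3 of untreated blood (Control). For the Control an incubation time was not found in the sources used here, and in comparisons with it time and material cannot be told apart. The study describes its animals as male and 6 weeks old, and names no genotype or other agent for any group. Whether libraries of the same group stem from different rats is not given, so the p-values measure only the spread between these libraries, which may be technical.

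As background, clotting ends with thrombin cutting fibrinogen, which is built from the chains of Fga, Fgb and Fgg. Factor X (F10), with factor V (F5) as its cofactor, makes thrombin. Most plasma clotting factors are proteins secreted by the liver, whereas factor V is also carried in platelet granules. The brakes sit largely on the vessel wall: thrombomodulin (Thbd) and the endothelial protein C receptor (Procr) help thrombin activate protein C, which with protein S (Pros1) inactivates factor V. The tissue factor pathway inhibitor (Tfpi) blocks factor X and the start of clotting, and protease nexin 1 (Serpine2) inhibits thrombin. A count in whole blood stands for RNA in the sample, whose source was not tested, and not for the amount of protein in plasma.

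Total counts were 51838917 to 68076324 per library, with a median of 66107661. The hemoglobin genes of red cells held 95.0% to 96.4% of them, and 2344910 to 3216776 counts remained for all other genes. Counts moved in steps, the most frequent count above 0 being 4, so a group total of 12 counts over 3 libraries, 3 such steps, was used as the floor below which a level cannot be told from 0. The floor covers counting error only. The labelled tissue was checked with markers: 8 of 8 erythroid and 12 of 14 platelet markers analysed had a count in every library, against 1 of 6 endothelium markers (Pecam1) and 1 of 8 hepatocyte markers (Tf). Of leukocyte markers it was 2 of 8 for neutrophil, 1 of 10 for monocyte and macrophage, 2 of 7 for T cell and 2 of 4 for B cell. Over the full lists, with markers not found in the table, it was 1 of 16 for hepatocyte and 1 of 12 for endothelium. For leukocytes it was then 2 of 10 neutrophil, 1 of 12 monocyte and macrophage, 2 of 9 T cell and 2 of 6 B cell markers. On either base, a count in every library did not clearly separate all leukocyte lists from those of cells outside blood. Fewer cells of a type and less RNA per cell cannot be told apart in bulk blood.

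The start regions of 3 genes are shown because these genes had the most counts of the 10. The windows are the 250 bases before the annotated transcription start in RefSeq (GRCr8, a build that was not matched to the table), 5′ to 3′, with each CpG in capitals.
Procr (chr3:164714477-164714726, + strand): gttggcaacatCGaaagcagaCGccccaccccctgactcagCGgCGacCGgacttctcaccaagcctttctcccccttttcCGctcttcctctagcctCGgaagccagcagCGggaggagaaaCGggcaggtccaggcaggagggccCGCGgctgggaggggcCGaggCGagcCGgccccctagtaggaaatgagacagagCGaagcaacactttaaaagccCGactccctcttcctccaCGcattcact
F5 (chr13:79046407-79046656, + strand): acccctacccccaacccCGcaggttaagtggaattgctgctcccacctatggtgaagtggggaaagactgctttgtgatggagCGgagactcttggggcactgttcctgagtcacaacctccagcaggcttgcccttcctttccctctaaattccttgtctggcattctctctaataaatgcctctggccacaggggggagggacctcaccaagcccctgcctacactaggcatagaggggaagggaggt
Fgb (chr2:170700876-170701125, - strand): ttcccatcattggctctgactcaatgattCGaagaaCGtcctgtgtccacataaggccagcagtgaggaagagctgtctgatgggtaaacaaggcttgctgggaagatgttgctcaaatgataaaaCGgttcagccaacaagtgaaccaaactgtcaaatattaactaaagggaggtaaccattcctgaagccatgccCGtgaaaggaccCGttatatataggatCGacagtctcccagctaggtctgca
The Procr window held 17 CpG pairs, the Fgb window 6 and the F5 window 2, against a median of 5 over 33469 rat windows of the same 250 bases (quartiles 2 and 15). Among the other genes Serpine2 had 30 and Pros1 16, and both were low in blood. F5, with 2, was detected in all 9 libraries and Serpine2, with 30, in 5 of 9. Windows were matched for 9 of the 10 genes.

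The group split into genes that blood RNA held in every library and genes that it did not. Procr and F5 had a count in all 9 libraries, Fgb in 6, Serpine2 in 5, Pros1 in 4, Tfpi in 2, and F10, Fga, Fgg and Thbd in 1 library each. Over all genes of the table, each with a count in at least 1 library, 25.6% had a count in all 9 libraries and 21.7% in just 1. Each library held a count for 3 to 6 of the 10 genes, with a median of 4, and for 6029 to 8417 of all 12854 genes. By group total, Procr, F5 and Fgb passed the floor in each of the 3 groups, and Serpine2 passed it in the DNAgel and GS groups. The other 6 genes were at or under it in each group. Over all genes of the table, 50.9% passed the floor in the Control, 46.3% with DNAgel and 43.7% with GS. At FPKM over 0.1 in at least 3 libraries, a common filter on low values, just Procr and Fgb passed.

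**Figure D1:**
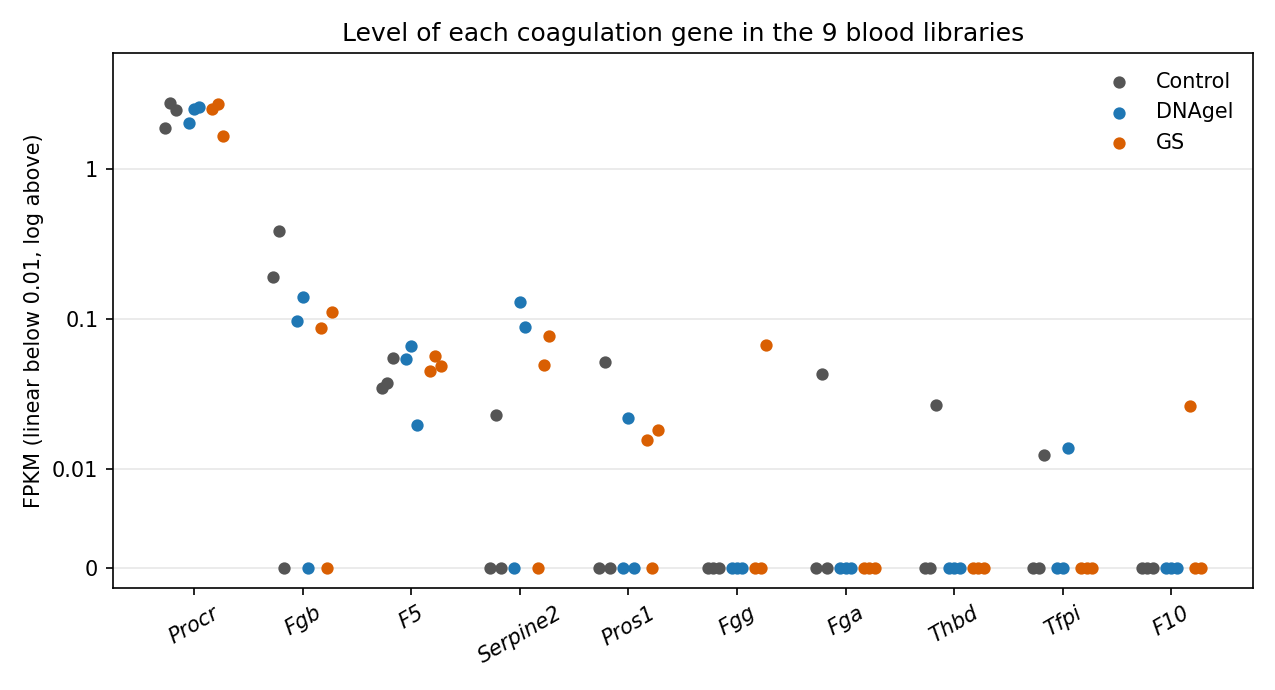
FPKM of the 10 genes in each of the 9 libraries, 1 point per library, colored by group (axis linear below 0.01 and logarithmic above). Procr lies at 1.68 to 2.79 in all libraries, F5 is low but never at 0, and the 6 genes on the right are at 0 in most libraries.

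Procr was by far the most abundant of the 10. This gene of the protein C receptor lies on chromosome 3 at 144254380 to 144258903 in the table's coordinates. Its FPKM was 1.88, 2.79 and 2.48 in the Control libraries, 2.04, 2.52 and 2.61 in the DNAgel libraries, and 2.52, 2.72 and 1.68 in the GS libraries. All 3 groups overlapped, and the lowest and the highest library were a GS and a Control library. The mean FPKM over 9 libraries was 2.36 ± 0.394 (SD), which lay above 95.4% of the genes of the table. On the FPKM scale, which takes length into account, this mean was 20.95 times that of Fgb and 51.1 times that of F5. The lowest Procr library was above the highest library of any other gene of the group, 0.385 FPKM for Fgb.

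The level of Procr was nearly the same with either material and without. Scaled to library size (TMM-normalized CPM, the count scaled for depth), it was 3.80 ± 0.644 in the Control, 4.04 ± 0.497 with DNAgel and 4.24 ± 1.03 with GS (SD, n = 3), and the highest library was 1.60 times the lowest. DNAgel differed from GS by a log2 fold change of -0.07 (SE 0.22, 95% interval -0.50 to 0.36, adjusted p = 1 in edgeR's quasi-likelihood test). The interval spans 0.706-fold to 1.29-fold, and larger changes of Procr lie outside it. DNAgel against Control gave 0.09 (SE 0.22, interval -0.34 to 0.52, edgeR adjusted p = 1), and GS against Control gave 0.16 (SE 0.22, interval -0.27 to 0.59, edgeR adjusted p = 0.938). The exact two-sided permutation test over the 6 libraries of a pair gave p = 0.8, p = 0.5 and p = 0.6 in the same order, where 0.1 is the smallest p that 3 against 3 allow. The sign of these small differences turned when only library totals were used as the scale (0.06, -9.01e-05 and -0.06), a change that moved the median of all genes by 0.13, -0.08 and -0.22 in the same comparisons. Relative to that median, Procr stood at -0.11, 0.13 and 0.25 with TMM scaling and at -0.11, 0.12 and 0.26 with library totals.

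The genes whose levels followed Procr most closely were AABR07068694.1 (Pearson r = 0.947 of log2(FPKM + 0.1)), Slc35b1 (0.857) and Tspo2 (0.853). They were the top 3 of 939 genes with a mean FPKM of at least 1 compared over the 9 libraries, each pair of values coming from the same library with its depth and hemoglobin share, and r is a description without a test. Among cell markers, the summed FPKM of the 6 endothelium markers was 0.0333 to 0.264 per library, below the lowest Procr value, 1.68. Of these 6, Pecam1 was detected in 9 libraries, Esam in 5, Tek in 3, Kdr in 2, and Flt1 and Eng in 1 each. Thbd and Tfpi, likewise genes of the vessel wall, had 8 counts each over 9 libraries. The 14 platelet markers, led by Pf4 and Clec1b, summed to 355 to 574 FPKM.

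F5, which encodes the cofactor that speeds up thrombin formation, was present at a low level in all 9 libraries. Its estimated counts were 20, 22 and 31 in the Control, 32, 30 and 12 with DNAgel, and 26, 32 and 25 with GS. The spread within the DNAgel group was thus as wide as that over all libraries. Mean FPKM was 0.0423 ± 0.0112 in the Control, 0.0465 ± 0.0241 with DNAgel and 0.05001 ± 0.00588 with GS (SD, n = 3). The log2 fold change was -0.24 for DNAgel against GS (SE 0.64, 95% interval -1.50 to 1.02, edgeR adjusted p = 1) and 0.21 for DNAgel against Control (SE 0.65, interval -1.05 to 1.47, edgeR adjusted p = 1). GS against Control gave 0.45 (SE 0.64, interval -0.81 to 1.71, edgeR adjusted p = 0.950). In that last pair the libraries did not overlap on the TMM-normalized CPM scale, where the highest Control was 0.409 and the lowest GS 0.449, and the exact permutation p was 0.1, the smallest possible. They did overlap in FPKM, in counts and in CPM of plain library totals, and 8.5% of all genes did not overlap in this comparison. F5 lies on chromosome 13 (76513255 to 76582317 in the table), 1409 bases from Selp, a platelet adhesion gene on the same strand that had 0 to 7 counts per library.

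**Figure D2:**
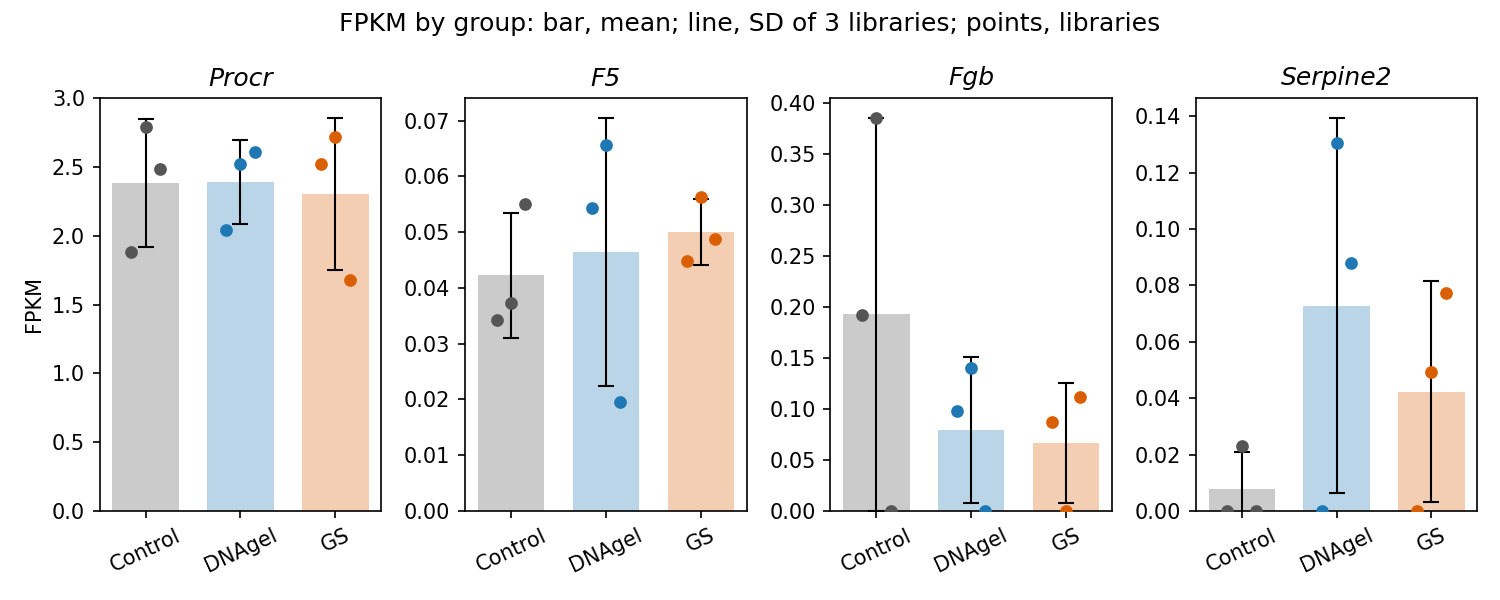
FPKM of Procr, F5, Fgb and Serpine2 by group, each panel with its own axis from 0; bars are means, lines SD of 3 libraries and points the libraries. The Procr means are 2.39, 2.39 and 2.31, and in the Fgb and Serpine2 panels every group has a library at 0.

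The 3 fibrinogen chain genes sit side by side on chromosome 2, within 50967 bases in the table, yet were never all detected in 1 library. Fgb had 27, 53 and 0 counts in the Control, 14, 16 and 0 with DNAgel, and 12, 0 and 14 with GS. Control 1 and Control 2 were above all other libraries, and each group had 1 library at 0. Fga had 8 counts, all in Control 2, and Fgg had 8 counts, all in GS 3. Fgb was detected in both of these libraries, but no library held RNA of all 3 chains. The gaps are 11797 bases from Fgg to Fga and 13387 from Fga to Fgb. Fgb spans 11064 bases in the table but 6910 in RefSeq, and its nearest neighbour, Plrg1, lies 2144 bases away on the other strand. Whether the authors' counting used the strand is not given in the sources used here, so reads of the pair may not be separable. Plrg1 had 0, 3 and 12 counts in the Control, 6, 0 and 20 with DNAgel, and 10, 16 and 0 with GS. Both genes had a count in Control 2, DNAgel 1 and GS 1, and in each of the other 6 libraries just 1 of them did. The part of neighbouring reads in the Fgb counts was not tested.

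On the FPKM scale Fgb averaged 0.193 ± 0.193 in the Control, 0.0792 ± 0.0718 with DNAgel and 0.0664 ± 0.0588 with GS (SD, n = 3). The SD was about as large as the mean in each group, and no difference passed the test. The log2 fold change was 0.09 for DNAgel against GS (SE 1.05, 95% interval -1.98 to 2.16, edgeR adjusted p = 1), and -1.25 for DNAgel against Control (SE 1.04, interval -3.30 to 0.80, edgeR adjusted p = 0.695). GS against Control gave -1.34 (SE 1.05, interval -3.40 to 0.72, edgeR adjusted p = 0.630), and the exact permutation p was 0.8, 0.5 and 0.5 in the same order. The Fgb intervals reach from a several-fold fall to a rise in each comparison, so these libraries do not settle its direction.

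Markers of hepatocytes, the main source of fibrinogen, also varied between libraries. Of 16 such markers listed, 8 were found by name in the table, and genes such as Apoa1, Ttr and Ahsg were not. The 8 analysed summed to 182, 273 and 166 counts in the Control and to 36, 170 and 54 with DNAgel. With GS they summed to 42, 72 and 73. Every Control library was thus above every GS library in this sum. Of single genes, 8.5% did not overlap in this comparison on the TMM-normalized CPM scale. Control 2 had the highest sum as well as the highest Fgb count. The leading markers were Rbp4, which carries retinol in plasma, and Tf, the iron carrier transferrin. Rbp4 had 60, 101 and 32 counts in the Control, 0, 20 and 22 with DNAgel, and 23, 22 and 37 with GS. Tf had 29, 23 and 90 in the Control, 16, 77 and 20 with DNAgel, and 11, 22 and 11 with GS, so its highest count was in Control 3 and not in Control 2. Alb, the albumin gene and the defining hepatocyte transcript, had 12 counts in Control 2, 4 in DNAgel 2 and 0 in the other 7 libraries. Cps1 of the list had 63, 113 and 15 counts in the Control, 0, 39 and 0 with DNAgel, and 0, 28 and 25 with GS. Control 3, with 166 marker counts, had no Fgb count. Rbp4, Tf and Arg1 of the list are also made outside the liver. Alb, Arg1, Cps1, Tek, Kdr, Flt1, Eng, Selp, Plrg1 and Vwf were not chosen by the rule for named genes but after their values were seen.

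**Figure D3:**
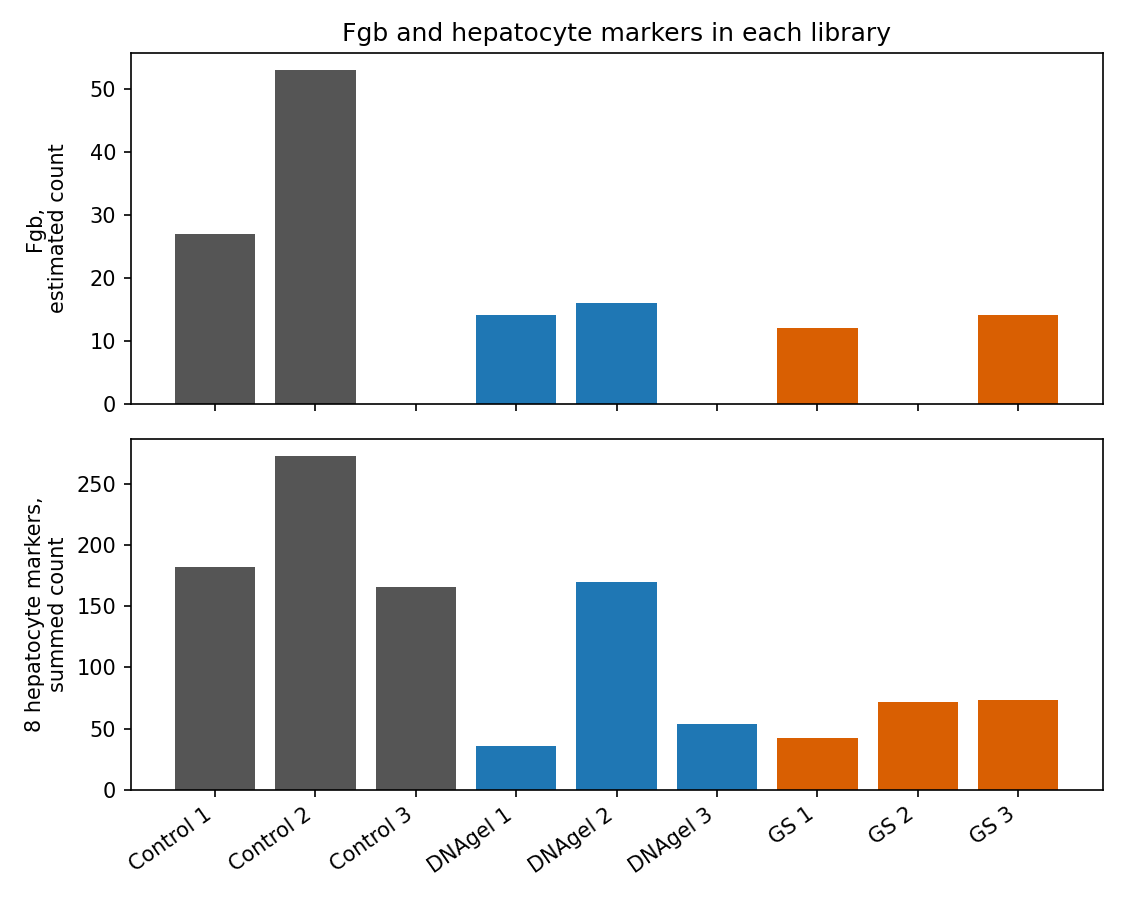
Estimated counts of Fgb (top) and summed counts of 8 hepatocyte markers (bottom) in each of the 9 libraries, as bars from 0 colored by group. Control 2 is highest in both panels, with 53 and 273, while Control 3 has 166 marker counts and no Fgb count.

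Control 2, picked out after these values were seen, was also where Fga and Pros1 peaked. With Fgb, 3 of the 8 genes detected in fewer than 9 libraries had their highest level in Control 2. Of 14 other coagulation genes of that kind, 6 did (42.9%), against 10.1% of all genes detected in fewer than 9 libraries. In GS 1 it was 4 of the 14 (28.6%), against 14.9% of all such genes. Control 2 had 66107661 counts, the median of the 9 totals, and 6963 genes detected. Without Control 2 the log2 fold change of Fgb was -0.33 for DNAgel against Control and -0.42 for GS against Control. The part of hepatocyte RNA and of depth in these values was not tested.

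Serpine2, the thrombin inhibitor protease nexin 1, was detected unevenly. It had 0, 4 and 0 counts in the Control, 0, 17 and 15 with DNAgel, and 0, 8 and 12 with GS. The group totals were 4, 32 and 20, with 1 library at 0 in each treated group, so the groups overlapped. Against the Control the log2 fold change was 3.03 with DNAgel (SE 2.15, 95% interval -1.18 to 7.24, edgeR adjusted p = 0.668) and 2.47 with GS (SE 2.11, interval -1.66 to 6.60, edgeR adjusted p = 0.654). Between the materials it was 0.56 (SE 1.98, interval -3.31 to 4.43, edgeR adjusted p = 1). The exact permutation p was 0.4, 0.4 and 0.6 in the same order. The 4 Control counts were all in Control 2, and without that library the fitted log2 fold change was 6.44 with DNAgel (edgeR unadjusted p = 0.0378) and 5.88 with GS (edgeR unadjusted p = 0.0519). With a Control at 0 these fitted values depend on the prior count and bound nothing, and the adjusted p over all alternatives was 0.591 to 1 and 0.653 to 1. The Control total is under the floor of 12 counts, so neither a rise nor its absence was shown. The nearest gene, AABR07039648.1, lies 8753 bases away on the same strand.

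**Figure D4:**
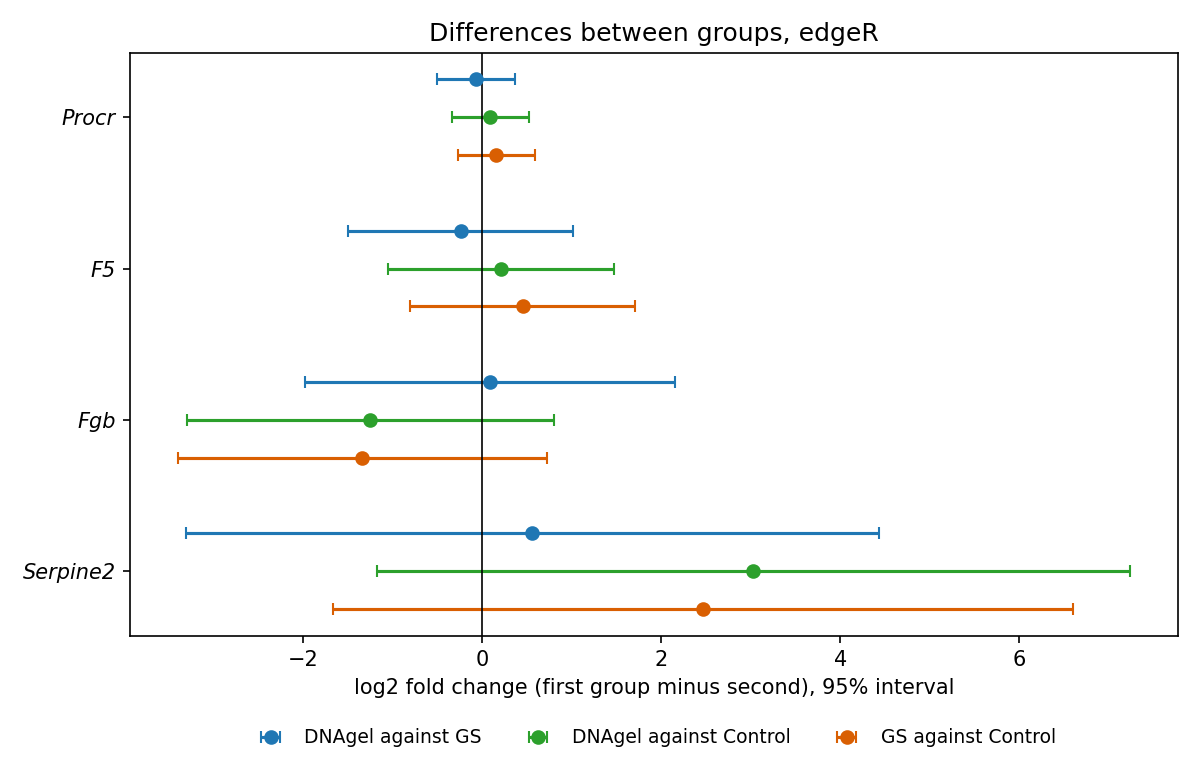
Log2 fold changes (first group minus second) of the 4 genes with a group total over 12 counts, from edgeR, with 95% intervals as lines. All 12 intervals include 0, and they widen from Procr (-0.50 to 0.36 for DNAgel against GS) to Serpine2 (-3.31 to 4.43).

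The remaining genes were at or under the floor. Pros1, the gene of protein S, had 12 counts in Control 2 and 4 each in DNAgel 2, GS 1 and GS 3. Tfpi had 4 counts in Control 3 and 4 in DNAgel 3. Thbd had 8 counts in Control 3, and F10 had 3 counts in GS 1. No fold change is given for these or for Fga and Fgg. Set against the FPKM that 12 counts over a group would give, the mean FPKM of Procr was higher by at least 111-fold for Fga, 70.7-fold for Fgg, 67.8-fold for F10, 178-fold for Thbd and 181-fold for Tfpi. In rank, Procr stood apart, Fgb, F5 and Serpine2 overlapped with each other in their library ranges, and the last 6 could not be ordered at this depth.

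No gene of the 10 passed the test in any comparison. For DNAgel against GS, 0 of 10 passed at an adjusted p of 0.05 in edgeR against 0.389% of all 12854 genes (0.35% higher and 0.0389% lower). For DNAgel against Control it was 0 of 10 against 0.00778%, and for GS against Control 0 of 10 against 0.358% (0.0389% higher and 0.319% lower). With so few calls among all genes, 0 of 10 is near the background. At an unadjusted p under 0.05 it was again 0 of 10 in each comparison (all genes 4.95%, 2.54% and 4.49%), and DESeq2 and limma on log2(FPKM + 0.1) also gave 0 in each. The median log2 fold change of the 4 genes with a fold was 0.01, 0.15 and 0.30 in the 3 comparisons, beside 0.04, -0.04 and -0.10 over all genes with a fold.

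Of 45 further genes of coagulation on 5 lists, 21 were found by name in the table, which holds only genes with a count. Whether the others had no count in any library or stand under another name was not checked. None of the 21 passed the edgeR test in any comparison, in either direction. At an unadjusted p under 0.05 there were 2 for DNAgel against GS, 1 for DNAgel against Control and 4 for GS against Control, while DESeq2 gave 0 calls at the adjusted threshold and limma gave 0. With a count in all 9 libraries there were 7 of the 21 found and of the 45 listed, namely F13a1, Vwf, Anxa2, S100a10, F2rl2, Vkorc1l1 and Ano6.

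Among 5 procoagulant genes analysed, F13a1, the A subunit of the fibrin-crosslinking factor XIII, was the highest at a mean FPKM of 1.65. It had 356, 449 and 679 counts in the Control, 257, 435 and 277 with DNAgel, and 427, 420 and 299 with GS. The log2 fold change for DNAgel against Control was -0.42 (edgeR adjusted p = 0.668), and the groups overlapped. F2, the prothrombin gene, had 21, 28 and 13 counts in the Control, 0, 10 and 0 with DNAgel, and 0, 0 and 9 with GS. Each Control library was above each treated library for F2, but the fold changes of -2.41 with DNAgel and -2.43 with GS had adjusted p of 0.668 and 0.630 in edgeR. Like Fgb, F2 is a liver gene and was highest in Control 2, and groups that do not overlap made up 5.69% and 8.5% of all genes in these comparisons.

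The 4 anticoagulant genes analysed were led by Anxa5, the annexin that covers phosphatidylserine on cell surfaces, and Serpinc1, the antithrombin gene. Anxa5 had 0, 57 and 39 counts in the Control, 34, 28 and 0 with DNAgel, and 4, 0 and 0 with GS. All 3 GS libraries were thus low, but Control 1 and DNAgel 3 were at 0 too. Its log2 fold change for GS against Control was -4.17 (SE 1.11, 95% interval -6.35 to -1.98, edgeR adjusted p = 0.0518), just short of the threshold, with adjusted p from 0.00647 to 0.997 over the 21 alternatives. It passed without GS 1 (0.00647), without Control 1 (0.0101) and without DNAgel 3 (0.0177), as edgeR adjusted p. For DNAgel against GS it was 3.76 (SE 1.11, edgeR adjusted p = 0.118), which passed without DNAgel 3 (0.0142) or without GS 1 (0.0123) and otherwise ran up to 0.911. Serpinc1 had 18 counts in Control 2 and 6 in GS 2.

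Of 3 fibrinolysis genes, S100a10 and Anxa2, partners in a cell surface receptor for plasminogen, had mean FPKM of 0.915 and 0.0662. Anxa2 had 36, 54 and 112 counts in the Control and 32, 25 and 25 with GS, a log2 fold change of -1.0 (edgeR adjusted p = 0.630). S100a10 ran from 34 to 69 counts over all 9 libraries. Among protease-activated receptors, the switches by which thrombin acts on cells, F2rl2 (PAR3) was the highest at a mean FPKM of 1.69, and F2rl3 (PAR4) had 0.0114. F2rl2 had 139, 157 and 124 counts with DNAgel and 240, 211 and 145 with GS. DNAgel against GS gave a log2 fold change of -0.59 (SE 0.25, edgeR adjusted p = 0.608), with no overlap between the groups on the TMM-normalized CPM scale, as for 7.17% of all genes.

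Of the 6 genes of gamma-carboxylation, factor transport and lipid scrambling, Vkorc1l1, a vitamin K epoxide reductase, had a mean FPKM of 0.525 and Ano6, a scramblase that exposes phosphatidylserine on platelets, 0.0492. Vkorc1l1 had 89, 111 and 143 counts in the Control, 126, 106 and 158 with DNAgel, and 160, 187 and 130 with GS. On the TMM-normalized CPM scale the GS libraries were all above the Control libraries, with a log2 fold change of 0.74 (SE 0.27, 95% interval 0.21 to 1.27, edgeR adjusted p = 0.511), and 8.5% of all genes likewise did not overlap.

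**Figure D5:**
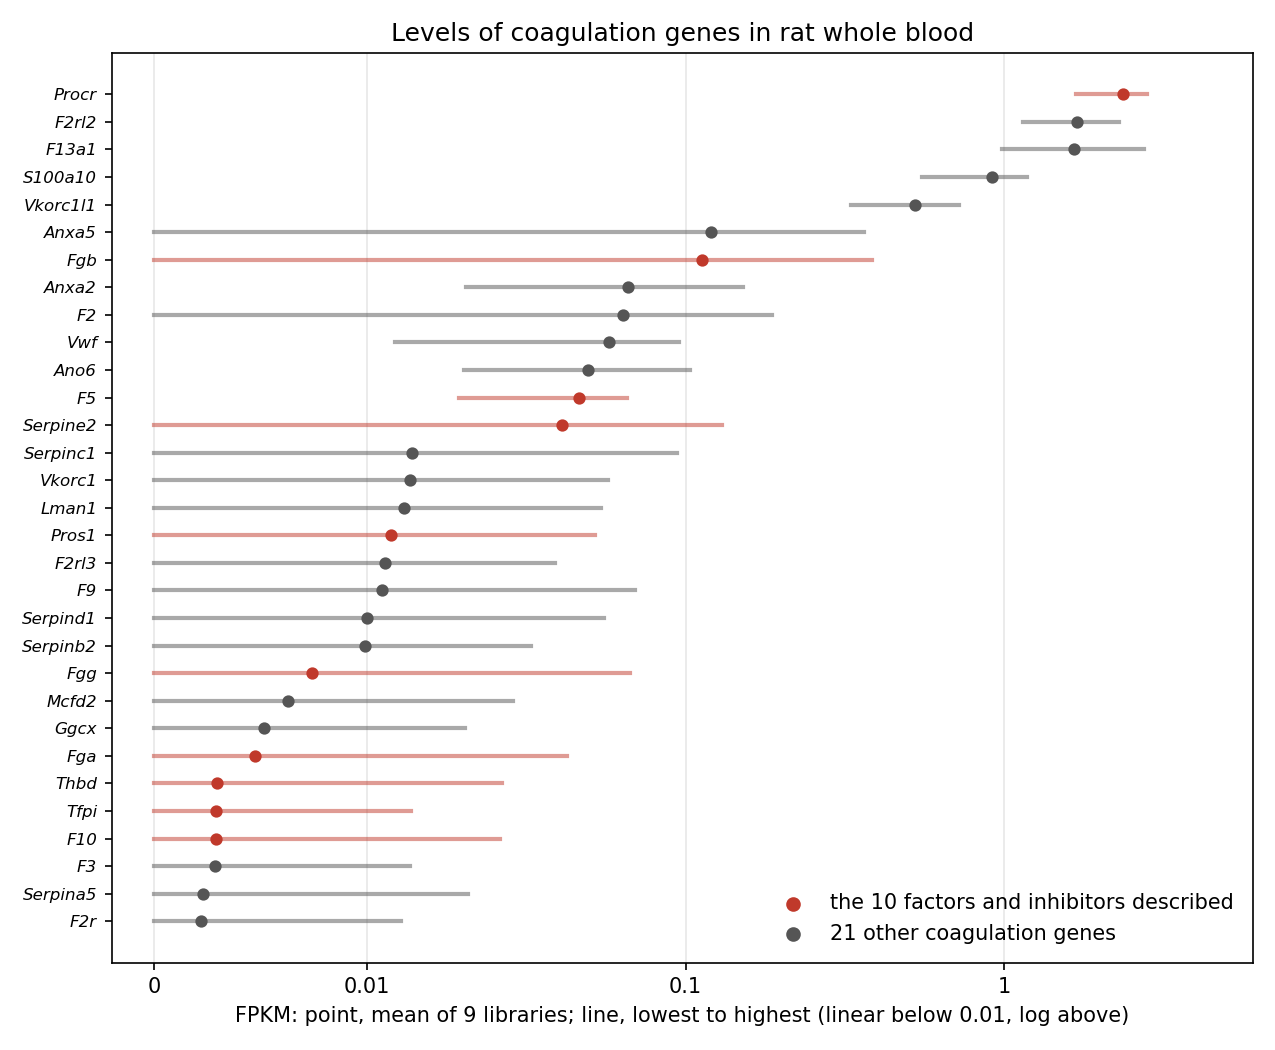
Mean FPKM over 9 libraries (points) and lowest to highest library (lines) of the 10 genes described (red) and 21 other coagulation genes (gray), on an axis linear below 0.01 and logarithmic above. Procr heads the plot at 2.36, followed by F2rl2 (1.69) and F13a1 (1.65), and most other genes reach 0 in at least 1 library.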

How the data were processed

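Poly(A) RNA of rat whole blood was sequenced by the authors with a strand-marking kit and adapters with unique molecular identifiers. Trimming with cutadapt 1.9, alignment software HISAT2 2.0.4, the molecular-identifier package UMI-tools and StringTie 1.3.4d appear in their processing notes, as do DESeq2 and edgeR, with neither order nor settings. The notes give a build of the mouse genome although the genes are those of the rat, so coordinates are those of the table with no build assigned. Per gene and library the authors deposited an estimated count, a whole number with no scaling, and an FPKM value, which is scaled by them for transcript length and library total.

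The counts of 12854 genes, unfiltered, entered a single edgeR 4.0.16 quasi-likelihood fit (R 4.3.3, TMM factors, robust option) of the 9 libraries, with Benjamini-Hochberg adjustment and an adjusted p of 0.05 as threshold. Standard errors are the absolute log2 fold change over the root of F. Folds are given where at least 1 group total is over 12 counts and neither is 0. Alternatives were DESeq2 1.42.0, its size factors, limma 3.58.1 on log2(FPKM + pseudocount of 0.1, 0.01 or 1), filters, library totals with all genes or leaving out the 9 hemoglobin genes, a block for replicate number, fits of just the pair of groups, and each library left out. The block was also fitted to Control and GS libraries alone, an alternative chosen after seeing the data. Control and GS libraries of the same number deviated alike from their means (r = 0.524, 0.368 and 0.303), though no source describes a pair. Those of different numbers had r of -0.479 to 0.043. Same-numbered pairs with a DNAgel library had r of -0.442 to 0.0034. Differently numbered pairs reached r = 0.614 (Control 2 with DNAgel 3) and 0.543 (Control 3 with DNAgel 1), so a pairing by number was not shown. Scripts were tested on simulated data for DNAgel against GS. Changes were placed only in genes with higher mean counts than F5, Fgb and Serpine2, so recovery at low counts was not covered.

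The members and lists were chosen with earlier results of these data known. Besides the 10 members, the rule named the 2 genes with the highest mean FPKM of each coagulation list and of each marker list used, any listed coagulation gene past the threshold, and the 3 genes most correlated with the highest member.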

Additional observations from a re-analysis of the deposited data

How the results depend on the processing

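No gene of the 10 passed the threshold in any comparison under the alternatives in which it was tested (the FPKM filters left Procr and Fgb, or Procr alone), and the block on replicate number changed no call of the 10 genes or of the 21 other coagulation genes. Leaving out single libraries, the number of other coagulation genes past the threshold ranged from 0 to 1 for DNAgel against GS and for GS against Control, and it was 1 for GS against Control with library totals alone and with library totals without hemoglobin genes; the gene was Anxa5. The number of the 10 genes detected was 2 per group when a count in all 3 libraries was asked, 4 for DNAgel and 4 for GS by the group total, 2 to 3 for DNAgel and 2 to 4 for GS when 1 library was left out.

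Some log2 fold changes turned sign. With the replicate block Fgb went from 0.09 to -1.33 for DNAgel against GS and from -1.34 to 0.19 for GS against Control, while the block on Control and GS libraries alone gave -0.91 for the latter. With library totals alone Procr gave 0.061 for DNAgel against GS, -9.01e-05 for DNAgel against Control and -0.061 for GS against Control. With limma and pseudocounts of 0.1, 0.01 and 1, Procr gave 0.071, 0.075 and 0.047 for DNAgel against GS, and -0.058, -0.060 and -0.040 for GS against Control. Leaving out 1 library, the range was -0.26 to 0.045 (Procr), -0.48 to 0.10 (F5), -0.50 to 0.67 (Fgb) and -0.015 to 1.38 (Serpine2) for DNAgel against GS, and -0.015 to 0.23 (Procr) and -0.026 to 0.55 (F5) for DNAgel against Control. The causes were not tested. Depth limits the 6 genes at or under 12 counts per group, for which no direction can be given.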
